A study of Mus musculus with 12 samples.

Results

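Nerve cells of the cerebral cortex that release glutamate express a set of genes that striatal neurons mostly lack, and 9 of these genes are described here in pools of dissected mouse striatum: Slc17a7, Tbr1, Neurod2, Neurod6, Cck, Nrn1, Rorb, Fezf2 and Rasgrf2. They are 9 of the 18208 genes in the RNA-seq table. The genes were selected on the RNA-seq values reported below, because those values varied between pools and did so together. Their levels in each library and their correlation across pools are therefore given as a description, with no test.

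The study sequenced RNA that had been cross-linked to hnRNP H, an RNA-binding protein, and pulled down with an antibody (CLIP-seq), and total RNA set aside from the same tissue pools before cross-linking (RNA-seq). Both groups were wild-type C57BL/6J mice bred from heterozygous Hnrnph1 mutant fathers, 50 to 100 days old, and all were injected with saline on the first 2 days. On day 3, one group received saline again and the other methamphetamine, a psychostimulant, at 2 mg/kg, and whole striata were taken 30 min later. Each replicate was a pool of striata from 4 mice, 2 female and 2 male, from several litters, with 3 pools per treatment and assay, so neither a single animal nor a sex can be followed. RNA-seq depth was 3935160 to 5091839 reads per library, and 423057 to 1635338 CLIP reads lay in the counted windows.

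The striatum, the main input station of the basal ganglia, consists largely of GABAergic projection neurons and receives dense glutamatergic axons from the cortex lying above it. Cortical excitatory neurons are built by a cascade of transcription factors. Neurod2 and Neurod6 are basic helix-loop-helix factors of that lineage, Tbr1 (a T-box factor) and Fezf2 (a zinc finger factor) set the identity of deep-layer neurons, and Rorb is a nuclear receptor best known from the middle layer. The other members act in the mature cell. Slc17a7 encodes VGLUT1, which loads glutamate into synaptic vesicles, Cck a neuropeptide, Nrn1 the membrane-anchored growth protein neuritin, and Rasgrf2 an exchange factor that activates Ras. In GENCODE M21 (mm10/GRCm38) Tbr1 lies at chr2:61802930-61814114 and Slc17a7 at chr7:45163949-45176142 on the plus strand. On the minus strand lie Neurod6 (chr6:55677822-55681263), Cck (chr9:121489824-121495694), Neurod2 (chr11:98325415-98329648), Nrn1 (chr13:36725361-36735131), Rasgrf2 (chr13:91880400-92131656), Fezf2 (chr14:12342094-12348189) and Rorb (chr19:18930605-19111196). Rorb is also expressed outside the cortex, and Cck and Nrn1 outside excitatory neurons. hnRNP H is known for binding runs of G in RNA, and for guiding splicing and polyadenylation from them.

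Sequences of some of the members' CLIP windows are shown first, on mm10/GRCm38, with runs of 3 or more G in capitals. They were read from GENCODE M21 transcripts or, for Fezf2, from the RefSeq promoter table (GRCm38). The Neurod2 window with the most CLIP reads is not among them. The count table gave reads in windows of 100 nt that covered only parts of a gene. The CLIP reads of a gene are therefore those counted in its windows. For the windows in untranslated regions a stretch of 30 bases is given. Each stretch was cut around the window's first longest run of G, and windows there without a run of 3 G were passed over. The runs in these stretches are therefore there by selection. The Tbr1 window is the coding sequence within exon 6 of its long transcript that the authors listed as a peak under both treatments (chr2:61812031-61812130, plus strand). The Fezf2 window was listed after methamphetamine (chr14:12345995-12346094, minus strand) and is intronic in the GENCODE M21 gene. It also lies wholly within the RefSeq promoter of Fezf2 (chr14:12345866-12346115, minus strand), and so upstream of that RefSeq transcription start. It is called intronic here by the GENCODE annotation only. The Slc17a7 window crosses the end of a coding exon into an intron that 1 annotated transcript retains (chr7:45172150-45172249, plus strand): its first 41 bases are exonic, so the annotated exon ends inside the first run of G. The Slc17a7 stretch is from its 3′ UTR (chr7:45175895-45175924, plus strand), in a window with 15 CLIP reads that is in neither list. The Nrn1 stretch is from the last 3′ UTR window of that gene (chr13:36725432-36725461, minus strand).
Tbr1 coding exon: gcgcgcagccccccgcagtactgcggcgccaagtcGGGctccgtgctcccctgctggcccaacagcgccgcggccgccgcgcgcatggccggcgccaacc
Fezf2 intron: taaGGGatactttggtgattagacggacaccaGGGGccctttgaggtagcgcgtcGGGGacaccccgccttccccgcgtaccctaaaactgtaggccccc
Slc17a7 exon end and retained intron: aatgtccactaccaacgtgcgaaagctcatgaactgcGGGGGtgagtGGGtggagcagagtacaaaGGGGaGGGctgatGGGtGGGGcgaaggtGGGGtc
Slc17a7 3′ UTR stretch: tgtgtgtccctcaGGGGctaaatgattcca
Nrn1 3′ UTR stretch: tactGGGGaggtGGGGGaggtcgttttcaa

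Slc17a7 was the most abundant of the 9 transcripts in RNA-seq. Its deposited levels were 7.44, 8.40 and 5.84 log2 CPM (log2 of reads scaled to a common library size) in saline replicates 1, 2 and 3, and 8.09, 7.81 and 9.05 in methamphetamine replicates 1, 2 and 3. On the linear scale these span 57.1 to 529 CPM, a 9.26-fold range. Saline replicate 3 was the lowest library, methamphetamine replicate 3 the highest, and the treatments overlapped because saline replicate 2 lay above 2 of the 3 methamphetamine pools. The 3 pools of a treatment are replicates from different mice, so a range of this size lies within replicates as well as between treatments.

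Among the transcription factors, Tbr1 measured 5.15, 5.71 and 4.44 log2 CPM in the saline replicates and 5.65, 5.82 and 6.78 in the methamphetamine replicates. Neurod2 measured 4.88, 5.14 and 3.65 after saline and 5.04, 5.08 and 5.97 after methamphetamine. Fezf2 measured 3.19, 3.50 and 2.03 after saline and 3.33, 3.02 and 4.20 after methamphetamine. In these 3 genes saline replicate 3 was again the lowest and methamphetamine replicate 3 the highest, with ranges of 5.06-fold, 5.01-fold and 4.50-fold. Rorb measured 4.31, 4.98 and 3.14 log2 CPM after saline and 4.70, 3.86 and 4.85 after methamphetamine. Its lowest library was the same, but its highest was saline replicate 2. Neurod6 was close to the counting limit, with read counts of 9, 23 and 2 after saline and of 16, 2 and 46 after methamphetamine, so its lowest levels, -0.69 log2 CPM in saline replicate 3 and -0.81 in methamphetamine replicate 2, rest on 2 reads each. The treatments overlapped for each of these 5 transcription factors.

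The genes of the mature neuron varied in the same pools. Cck measured 4.90, 5.87 and 3.33 log2 CPM after saline and 5.63, 5.23 and 6.32 after methamphetamine, a 7.96-fold range with saline replicate 3 at the bottom and methamphetamine replicate 3 at the top. Nrn1 had the widest range among members with at least 4 reads in every library: 2.12, 4.29 and 0.16 log2 CPM after saline and 3.64, 2.30 and 3.96 after methamphetamine, where the value of saline replicate 3 rests on 4 reads. Rasgrf2 measured 4.45, 5.81 and 3.95 after saline and 4.87, 4.51 and 5.49 after methamphetamine. For Nrn1 and Rasgrf2 the highest library was saline replicate 2, and the treatments overlapped for all 3 genes.

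**Figure D1:**
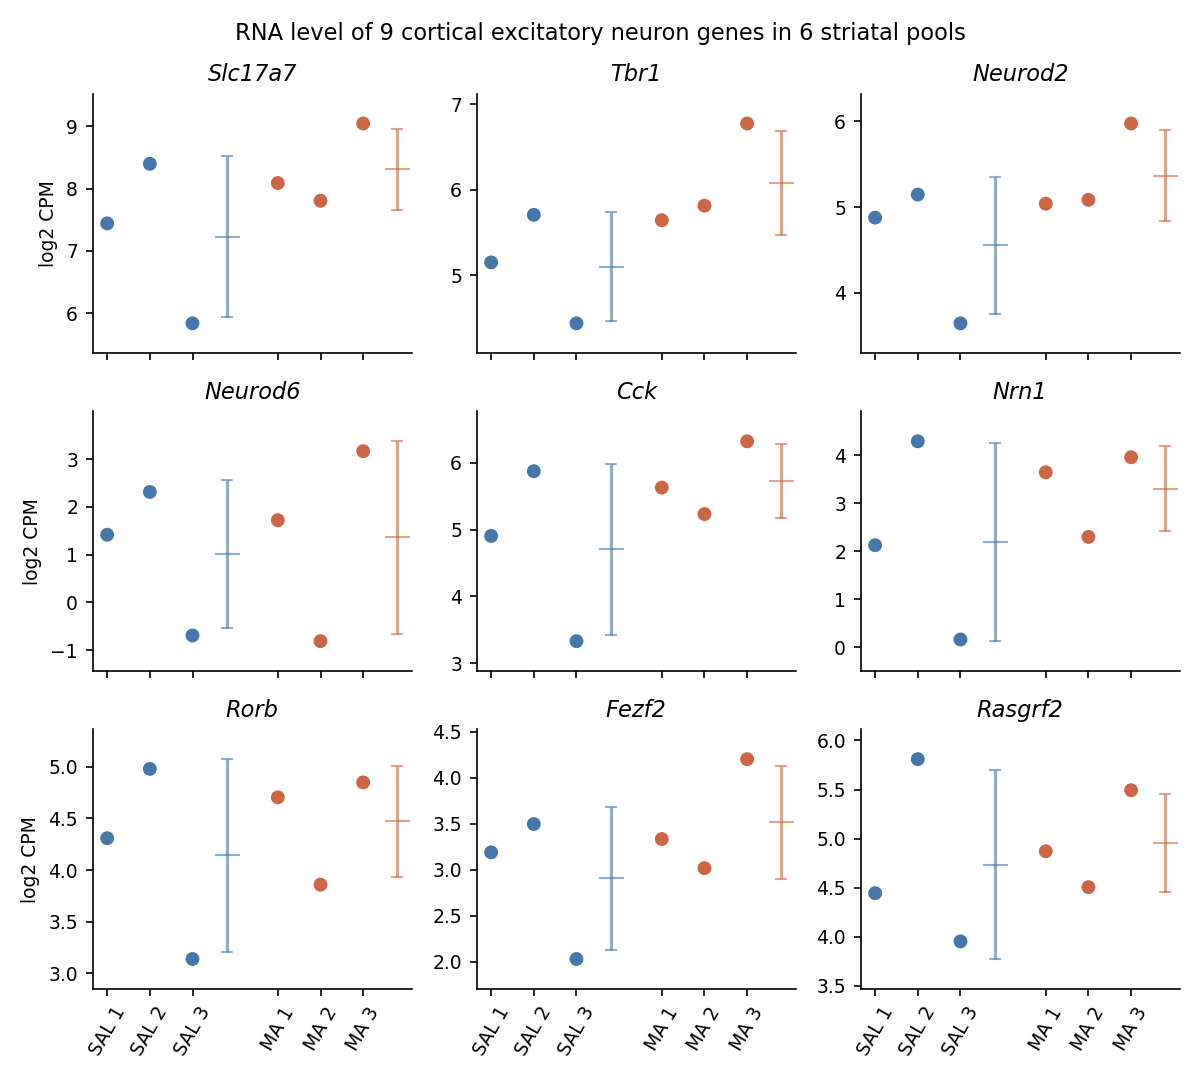
RNA level of the 9 genes in log2 CPM (vertical axis, own scale in each panel) in the 3 saline (SAL, blue) and 3 methamphetamine (MA, red) libraries, 1 point per library, with the group mean and SD beside each group. Saline replicate 3 is the lowest point for 8 genes, methamphetamine replicate 3 is the highest for 6, and the groups overlap for all 9.

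In all, 8 of the 9 genes were lowest in saline replicate 3, 6 were highest in methamphetamine replicate 3 and the other 3 in saline replicate 2. Over all RNA-seq genes, 20.6% were lowest in saline replicate 3, and since the genes were selected on this variation nothing is read from the comparison. The median range of the members was 2.34 log2 units, against 1.03 for all 18208 genes and 0.62 for the 7853 genes with a mean of at least 4 log2 CPM, a level that Neurod6, Nrn1 and Fezf2 do not reach.

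Levels of different genes can be compared only per length. As reads per kilobase of annotated exon, scaled for depth (RPKM, from the deposited values and the exon lengths of GENCODE M21), Slc17a7 ranked first with a mean of 49.3 and a range over libraries of 10.6 to 98.1, followed by Cck at 33.9 (7.69 to 61.3). Neurod2 at 11.0 (3.98 to 20.0) and Tbr1 at 9.89 (3.95 to 20.0) came next. Nrn1 at 4.29, Rasgrf2 at 3.44, Fezf2 at 3.34, Rorb at 1.95 and Neurod6 at 1.63 RPKM followed. Every neighbouring pair in this order had ranges over pools that overlapped. These ranges do not compare 2 genes within the same library, so the overlap does not settle the order of neighbours.

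Across the 6 libraries, all 36 pairs of members had a Pearson correlation of log2 CPM above 0.5, from 0.66 (Tbr1 with Neurod6) to 1.00 (Slc17a7 with Cck), with a median of 0.90 and a median Spearman correlation of 0.89. The points share library depth and scaling. Without methamphetamine replicate 3 and saline replicate 3, the libraries with the highest and lowest mean of the members, the median over the remaining 4 libraries was 0.76, 27 pairs remained above 0.5, and 2 pairs were below 0. Leaving out the members' own extreme libraries narrows the range and tends to lower a correlation, so nothing is read from the drop. Tbr1 was the gene least like the others in the middle 4 libraries, with a median correlation of 0.42 with the other members, and Nrn1 the most like them, at 0.90.

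Pools also differed from each other across the whole RNA-seq table. The first principal component, computed from 7837 genes without the members and without a second list of cortical genes, held 65.6% of the variance and put saline replicates 1 and 3 with methamphetamine replicate 2 on one side, and saline replicate 2 with methamphetamine replicates 1 and 3 on the other. These sides were defined from the data and are called library sets A and B. For 7 of the 9 members each library of set B was higher than each of set A, where 19.9% of all genes were. The exceptions were Tbr1 and Neurod2, for which methamphetamine replicate 2 of set A lay above 2 and 1 libraries of set B. Set means differed by 0.85 (Neurod2) to 2.44 (Nrn1) log2 units, B above A in all 9 members. This contrast was known when the genes were chosen, and nothing is read from the counts.

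Genes outside the 9 with the most similar pattern were found by the root mean square (RMS) difference, over the 6 libraries, between a gene's log2 CPM centred on its own mean and the members' mean centred profile. Among 7847 genes with a mean of at least 4 log2 CPM, the nearest were Pde1a, a cyclic nucleotide phosphodiesterase (RMS difference 0.13), Ipcef1 (0.20), the calcium sensor Ncald (0.21), the calcium pump Atp2b4 (0.21) and Vopp1 (0.22). Pde1a measured 4.39, 5.55 and 3.05 log2 CPM after saline and 5.19, 4.34 and 6.00 after methamphetamine. Members themselves lay at 0.21 (Cck) to 0.82 (Neurod6) from their own mean. The genes nearest to the mirror image of the profile were Atad2b (0.29), Ntn3, a netrin (0.30), the endocytic scaffold Itsn1 (0.30), Uaca (0.31) and Arhgef26 (0.31). Itsn1 measured 10.47, 9.82 and 11.26 log2 CPM after saline and 10.07, 11.00 and 9.22 after methamphetamine, highest where the members were lowest.

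A second list of 17 genes known from cortical excitatory neurons varied less in sum. Its summed level was 631 to 754 CPM after saline and 679 to 801 CPM after methamphetamine, a 1.27-fold range. The 9 members summed to 132 to 607 and 402 to 898 CPM, a 6.83-fold range. The members were selected because they varied, so nothing is read from that contrast. Of the 17, 8 were lowest in saline replicate 3, where 20.6% of all genes were. By the RMS difference from the members' mean profile, Slc30a3 was the nearest of the 17 (0.45) and Scnn1a the farthest (1.23). Slc30a3 measured 3.44, 4.26 and 2.20 log2 CPM after saline and 3.05, 2.36 and 3.96 after methamphetamine. In 3 of the 17, each library of set B was above each of set A: Etv1 and Lamp5, and Neurod1, which had at most 7 reads in any library. Etv1, an ETS factor of layer 5 neurons, measured 3.71, 4.86 and 3.59 log2 CPM after saline and 4.57, 3.74 and 4.64 after methamphetamine. Lamp5, which also marks some interneurons, measured 4.62, 5.48 and 4.23 after saline and 4.83, 4.58 and 5.19 after methamphetamine. Sv2b, a synaptic vesicle protein, spanned 6.55 to 7.58 log2 CPM with the lowest value in saline replicate 3. Tle4, Hs3st4 and Cux2 varied by 0.27, 0.27 and 0.42 log2 units over the 6 libraries. Syt6, Bhlhe22 and Deptor spanned 6.54 to 7.13, 3.28 to 4.55 and 3.88 to 4.34. Several of these genes, such as Tle4, are expressed by striatal cells as well. In tissue RNA, fewer cells of a type and less RNA per cell cannot be told apart.

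Markers of other cell types were measured in the same libraries, and their part in the members' pattern was not tested. All genes of each list were measured, and none had 0 reads in all 6 libraries. Striatal projection neuron genes were abundant throughout, as the tissue label says: Ppp1r1b, which encodes DARPP-32, ranged from 10.70 to 11.70 log2 CPM, and Pde10a and Penk had means of 10.33 and 9.26. The summed level of the 12 striatal genes ran from 6624 to 9074 CPM after saline and from 5827 to 7801 after methamphetamine, and was highest in saline replicate 3 and lowest in methamphetamine replicate 3, opposite to the members. The 8 astrocyte genes summed to 2496 to 3892 CPM after saline and 2609 to 4077 after methamphetamine. This sum shared with the members the lowest (saline replicate 3) and the highest (methamphetamine replicate 3) library, but Slc1a2 alone had a mean of 2184 CPM. By gene, 4 of the 8 were lowest in saline replicate 3, where 20.6% of all genes were, and 2 were highest in methamphetamine replicate 3. Microglial genes summed to 292 to 358 and 295 to 383 CPM, interneuron genes to 493 to 583 and 558 to 778, and both sums had the same lowest and highest libraries. By gene, 4 of the 8 microglial and 3 of the 10 interneuron genes were lowest in saline replicate 3. In each of these lists 3 genes were highest in methamphetamine replicate 3. The interneuron gene Sst alone had a mean of 337 CPM. Oligodendrocyte genes summed to 5043 to 12307 and 7956 to 12053 CPM and endothelial or mural genes to 197 to 323 and 236 to 335, both lowest in saline replicate 1. Thalamic genes summed to 64.6 to 86.0 and 66.0 to 169.6 CPM, highest in methamphetamine replicate 1. Choroid plexus genes summed to 65.5 to 231 CPM in 5 libraries and to 5010 in methamphetamine replicate 2, where Ttr, the transthyretin transport protein, reached 12.17 log2 CPM.

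**Figure D2:**
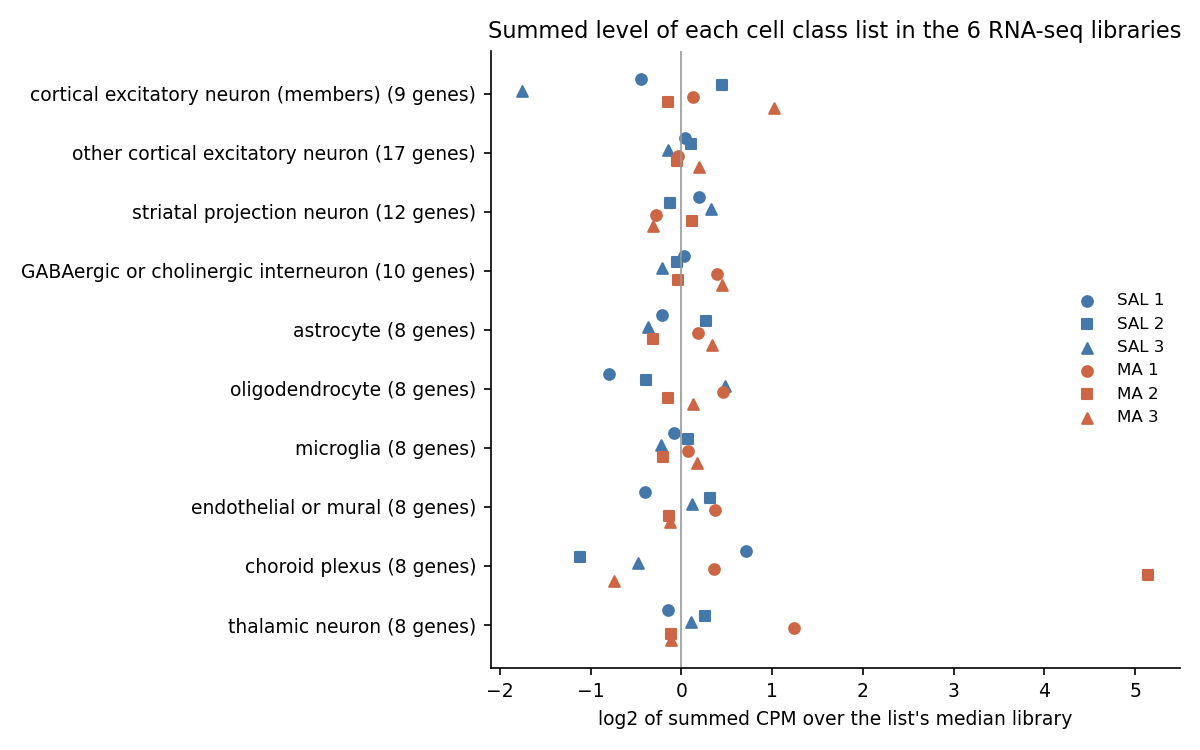
Summed RNA-seq CPM of each list of marker genes in each library, as log2 of its ratio to the list's median library (horizontal axis), with saline libraries in blue and methamphetamine libraries in red. The members, selected because they varied, spread over a 6.83-fold range and the 17 other cortical genes over 1.27-fold. Choroid plexus genes stand apart in methamphetamine replicate 2.

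None of the 9 genes passed the test for a difference 30 min after methamphetamine. Each had a higher mean after methamphetamine, with differences of 1.09 ± 0.57 (SE) log2 units for Slc17a7, 0.98 ± 0.37 for Tbr1, 0.81 ± 0.40 for Neurod2, 1.03 ± 0.56 for Cck and 1.11 ± 0.90 for Nrn1. Fezf2 differed by 0.61 ± 0.45, Neurod6 by 0.35 ± 1.04, Rorb by 0.33 ± 0.45 and Rasgrf2 by 0.22 ± 0.45. limma, fitted to all 18208 genes with 3 pools per group, gave an adjusted p of 1.00 for each member. It called 0 genes (0.0%) at an adjusted p under 0.05, with 276 genes under 0.05 before adjustment. Tbr1, with an unadjusted p of 0.026 from limma, was the only member below 0.05, where 0.555% of all genes were and higher after methamphetamine. In none of the 9 did the treatments separate without overlap, as 2.44% of all genes did in the higher direction.

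A mean above saline in 9 of 9 members compares with 50.4% of all genes, and the members' median difference of 0.81 log2 units with 0.002 over all genes. Members that vary together are not independent of one another, and set B holds 2 of the 3 methamphetamine pools but 1 of the 3 saline pools, so these counts carry the contrast that the genes were selected on. With the library set as a covariate in limma, the median was 0.34 and 6 of 9 were positive, with Neurod6 at -0.52, Rasgrf2 at -0.16 and Rorb at -0.03. Without saline replicate 3 the median was 0.17, again with 6 of 9 positive, and without methamphetamine replicate 3 it was 0.51, with 7 of 9. Without saline replicate 3, Slc17a7 stood at 0.39, Tbr1 at 0.65, Neurod2 at 0.35, Cck at 0.34, Fezf2 at 0.17 and Nrn1 at 0.09, against 1.68, 1.28, 1.10, 1.61, 0.91 and 2.16 without saline replicate 2. edgeR on recovered reads gave 0.37 for Nrn1. Within set A, methamphetamine replicate 2 minus the mean of the 2 saline pools had a median of 0.82 over the members and was positive for 8. Within set B, the mean of the 2 methamphetamine pools minus saline replicate 2 had a median of 0.13 and was positive for 6. Tbr1 was 1.02 and 0.50 higher within the sets, Slc17a7 1.17 and 0.17, and Nrn1 1.16 and -0.49. Each of these differences has a single library on 1 side, so none could be tested.

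**Figure D3:**
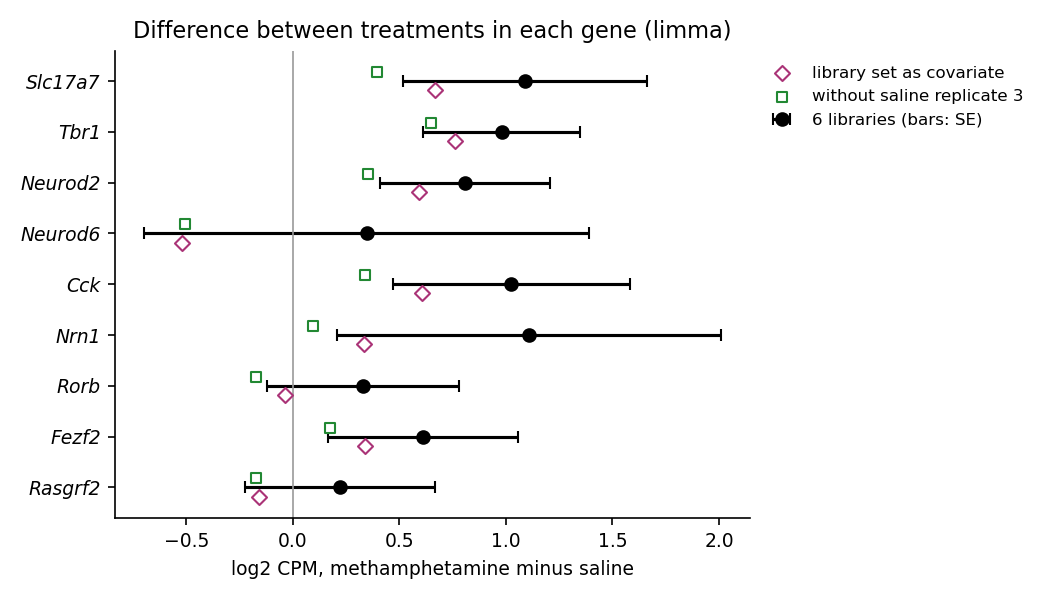
Difference in mean log2 CPM, methamphetamine minus saline (horizontal axis), for the 9 genes. Filled points with SE bars are from limma on all 6 libraries, diamonds add the library set as a covariate, and squares leave out saline replicate 3; Slc17a7 goes from 1.09 to 0.67 and 0.39, and Neurod6, Rorb and Rasgrf2 cross 0 in both.

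Other lists differed by treatment as follows, with no adjusted p under 0.05 in any of them (limma). The 17 other cortical genes had a median difference of 0.09, with 10 higher after methamphetamine, and 1 of them, Cplx3, a complexin singled out after its value was seen, had an unadjusted p of 0.0058 from limma. A share of 50.4% of all genes had a higher mean after methamphetamine. The 12 striatal genes had a median of -0.23 with 0 higher. Astrocyte genes had a median of 0.18 (8 of 8 higher), oligodendrocyte genes 0.36 (8 of 8), microglial genes 0.09 (7 of 8), interneuron genes 0.08 (6 of 10), thalamic genes 0.06 (4 of 8) and endothelial or mural genes -0.002 (4 of 8). Choroid plexus genes had a median of 1.18 (7 of 8 higher), above that of the members, and of -0.20 (4 of 8) without methamphetamine replicate 2, an alternative chosen after seeing the data. Without that replicate the members' median was 1.11, with 9 of 9 higher.

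In CLIP-seq, 8 of the 9 genes had at least 1 window in the count table, where 72.6% of all RNA-seq genes had one, and Neurod6 had none. These 8 genes held 42 windows. The deposited peak lists, 1 per treatment, held 3 of the 9 genes (Tbr1, Slc17a7 and Fezf2), where 38.7% of all RNA-seq genes were in at least 1 list. In the authors' deposited table, the Tbr1 window shown above had a signal value of 1.83 (q-value 2.295e-06) after methamphetamine and 1.45 (q-value 0.003624) after saline. Slc17a7 had a different 3′ UTR window in each list of the authors' deposited tables: chr7:45175750-45175849 after methamphetamine (signal 1.29, q-value 0.001415) and chr7:45176050-45176149 after saline (signal 1.45, q-value 0.000807). The Fezf2 window, in the authors' deposited methamphetamine table only, had a signal of 1.45 and a q-value of 0.04847. The scale of the signal and the test behind these values are not given in the sources used here.

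The most reads over a member gene lay in 1 intronic window of Neurod2 (chr11:98329216-98329315, minus strand), in its only intron and 383 nt from the start of the gene. Saline replicates 1, 2 and 3 had 123, 3 and 421 of its reads, and methamphetamine replicates 1, 2 and 3 had 10, 95 and 81. Together they made up 98.7% of the reads in the gene's counted windows. Scaled to the library's CLIP reads these are 117, 7.09 and 257 CPM after saline and 11.0, 97.0 and 136 CPM after methamphetamine. Only 0.682% of the 147438 windows held more reads, yet the window was in neither deposited list. The levels overlapped between treatments, and the 2 lowest were saline replicate 2 and methamphetamine replicate 1. Saline replicate 3, the lowest library for Neurod2 RNA, was the highest for its CLIP signal.

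Nrn1 held 474 CLIP reads in 7 windows and was also in neither list. Its 3′ UTR window at the end of the gene (chr13:36725362-36725461), from which the stretch with runs of 4 and 5 G was shown, held 61.4% of the reads in those windows. Its counts were 71, 19 and 87 after saline and 30, 58 and 26 after methamphetamine. An intronic window (chr13:36727762-36727861) had counts of 21, 7 and 37 after saline and of 10, 32 and 12 after methamphetamine. Summed over its 7 windows Nrn1 measured 100.6, 70.9 and 83.2 CLIP CPM after saline and 51.7, 108 and 82.3 after methamphetamine. This was a 2.09-fold range, while its RNA ranged over 17.5-fold. Each library of set A had more Nrn1 CLIP signal than each of set B, the reverse of its RNA level. The closest pair was saline replicate 3 at 83.2 and methamphetamine replicate 3 at 82.3 CPM. Each CLIP library of set A was also deeper (979878 reads or more) than each of set B (909091 or fewer). The share of all CLIP genes that separate by set was not computed. Nothing is therefore read from this order, or from those of Slc17a7 and Tbr1 below. Nrn1 lies over Fars2 and Gm30177 on the opposite strand, and whether RNA-seq reads were counted by strand is not given in the sources used here, so its RNA values are uncertain.

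Slc17a7 held 193 CLIP reads in 17 windows: 12, 18 and 50 in the saline replicates and 59, 24 and 30 in the methamphetamine replicates, or 11.4, 42.5 and 30.6 CPM and 64.9, 24.5 and 50.4 CPM. Each library of set B was above each of set A, as for its RNA. The 5 windows of the 3′ UTR (chr7:45175450-45176149) took 108 of these reads, with 6.65, 37.8 and 11.6 CPM after saline and 40.7, 4.08 and 42.0 after methamphetamine. The 5 adjacent windows that start at the exon end shown above (chr7:45172150-45172649) took 53 reads, with 1.90, 0 and 14.7 CPM after saline and 11.0, 14.3 and 5.04 after methamphetamine. Saline replicate 2 thus had 16 reads in the 3′ UTR and 0 in the retained intron, whereas methamphetamine replicate 2 had 4 and 14. With 0 to 37 reads per library and region, these splits are loosely measured, and the count of 0 allows up to 3 reads. The microRNA gene Mir7055 lies within Slc17a7 on the same strand, outside these windows.

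**Figure D4:**
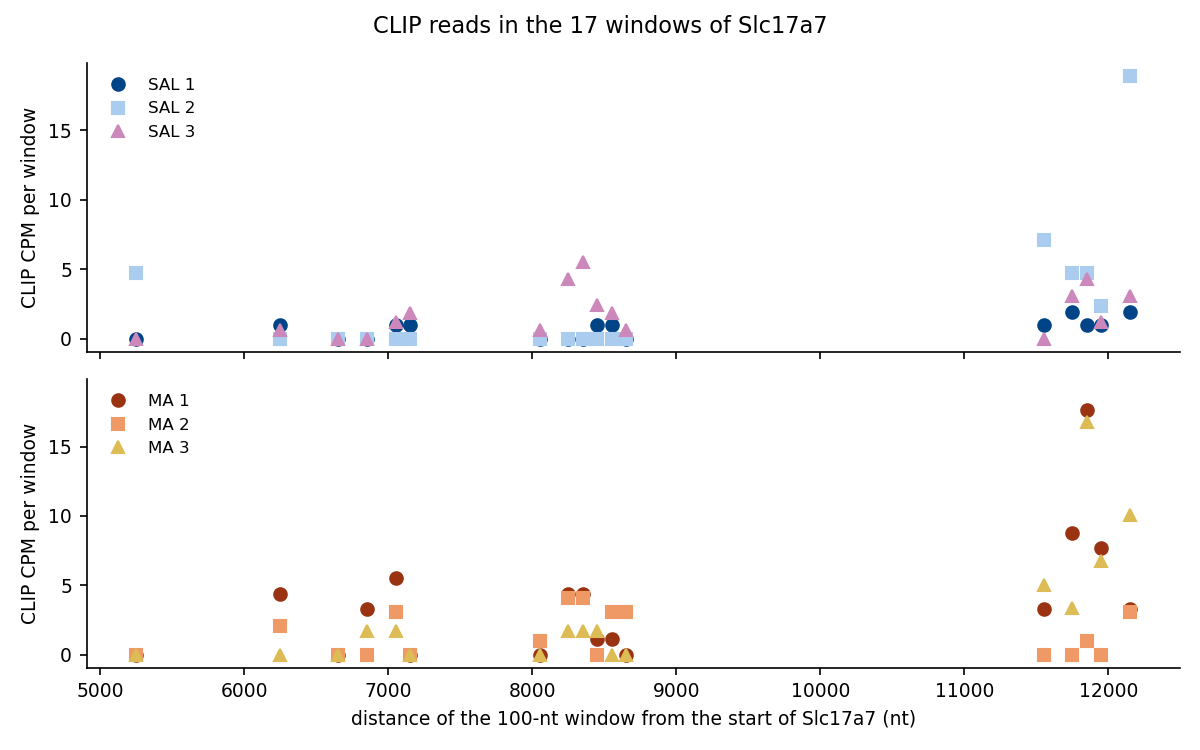
CLIP CPM in the 17 windows of Slc17a7 (vertical axis) against the distance of the window from the start of the gene in nt (horizontal axis), saline libraries above and methamphetamine libraries below, 1 symbol per library. Signal in the 3′ UTR, at the right, is high in saline replicate 2 and methamphetamine replicates 1 and 3. Summed over the 5 adjacent windows at the retained intron, saline replicate 3 (14.7 CPM) and methamphetamine replicate 2 (14.3 CPM) are highest and nearly equal.

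Tbr1 held 57 CLIP reads, 55 of them in the listed coding window: 4, 8 and 14 after saline and 12, 7 and 10 after methamphetamine. Summed over its counted windows, Tbr1 measured 3.80, 18.9 and 8.56 CPM after saline and 15.4, 7.14 and 16.8 after methamphetamine. The 3 libraries of set B were highest. Fezf2 held 58 reads in 5 windows, 8.56 to 18.9 CPM after saline and 8.40 to 12.2 after methamphetamine, and the listed intronic window took 17 of them. Rorb held 49 reads in 4 windows with none in methamphetamine replicate 3, and Cck 4 reads in 1 window. Rasgrf2 held 26 reads in 4 windows, with counts of 2, 0 and 0 after saline and 13, 7 and 4 after methamphetamine. At this depth those 3 genes and Fezf2 did not pass the filter on read counts, and no test between treatments was made for them.

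Relative to RNA, the members took unlike positions. Among 8995 genes with CLIP reads in every library and a value in RNA-seq, the ratio of CLIP CPM to RNA-seq CPM put Nrn1 between percentile 77.4 (saline replicate 2) and 96.4 (saline replicate 3). Slc17a7 lay between percentile 7.30 and 38.4, and Tbr1 between 11.8 and 32.1. Fezf2 lay between 36.0 and 67.1. Neurod2 covered the widest range, from 20.1 in methamphetamine replicate 1 to 91.2 in saline replicate 3. Slc17a7, Neurod2, Nrn1 and Fezf2 each had their highest percentile in saline replicate 3, the pool with their lowest RNA, which enters the ratio as its denominator.

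**Figure D5:**
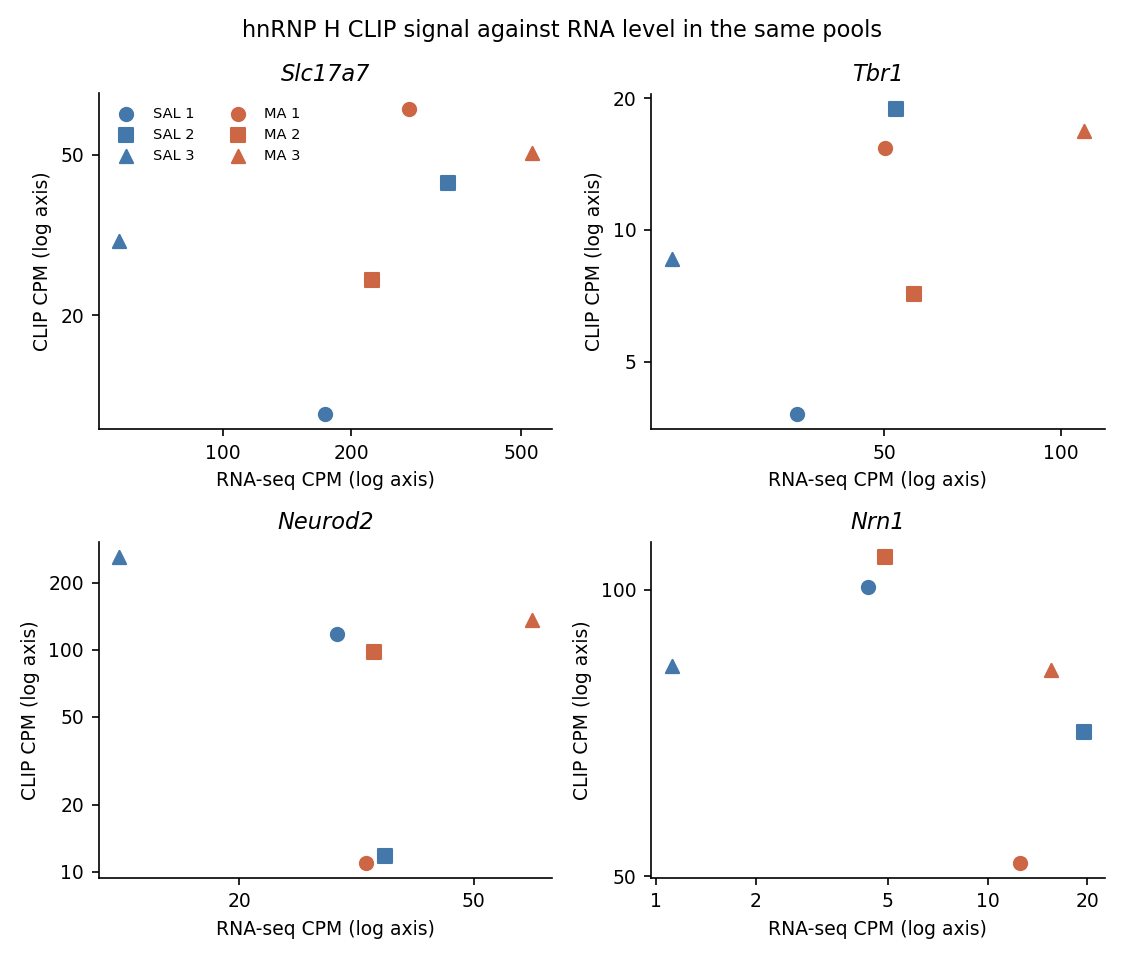
CLIP CPM (vertical, log axis) against RNA-seq CPM (horizontal, log axis) of the same pools for the 4 members tested in CLIP-seq, 1 symbol per pool. Nrn1 CLIP spans 2.09-fold where its RNA spans 17.5-fold, and Neurod2 CLIP is lowest in saline replicate 2 and methamphetamine replicate 1.

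The 4 members with enough CLIP reads for the test did not differ between treatments beyond the spread between pools. The CLIP level of Slc17a7, scaled by TMM, was 28.8 ± 15.9 CPM in saline pools and 45.0 ± 18.7 CPM in methamphetamine pools (SD, n = 3 each), a log2 difference of 0.75 ± 0.61 (SE) with an adjusted p of 0.88 from the edgeR quasi-likelihood test. The difference was 0.34 without saline replicate 1 and 1.13 without saline replicate 2. Tbr1 had 10.7 ± 7.95 and 12.7 ± 5.07 CPM (log2 difference 0.44 ± 0.71, edgeR adjusted p 0.92), and without saline replicate 1 the difference was -0.04. Neurod2 had 132 ± 124 and 81.1 ± 64.4 CPM (log2 difference -0.67 ± 0.97, edgeR adjusted p 0.92), and without saline replicate 3 the difference was 0.23. Nrn1 had 87.5 ± 17.2 and 79.1 ± 29.5 CPM (log2 difference -0.10 ± 0.39, edgeR adjusted p 0.97), and the difference was 0.04 without saline replicate 1 and 0.13 without methamphetamine replicate 1. Over 8177 genes, edgeR called 0 (0.0%) at an adjusted p under 0.05, with 429 under 0.05 before adjustment, and DESeq2 called 0, with 396. Of the 42 windows, 4 entered the test of single windows: those of Neurod2 (-0.46 ± 1.06), the 2 of Nrn1 (-0.10 ± 0.33 and 0.24 ± 0.43) and that of Tbr1 (0.58 ± 0.79). None was called, and edgeR called 0 of 10358 windows (0.0%), with 347 under 0.05 before adjustment, while DESeq2 called 0, with 345.

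Runs of G were counted in the 22 member windows that lay within 1 exon, of which 15 are windows of Slc17a7, many of them adjacent, so the shares describe mainly that gene, and no test was run. In the sequence of the RNA itself 77.3% held GGG, against 70.9% of all 24074 such windows and 82.4% of the 3403 that the authors listed. GGGG was found in 45.5%, 36.5% and 49.7% of these sets, and GGGGG in 22.7%, 14.5% and 23.8%. On the opposite strand, GGG was in 63.6% of the member windows and 63.5% of all, GGGG in 40.9% and 28.5%, and GGGGG in 22.7% and 10%. The Slc17a7 exon end shown above held 7 runs, while the listed Tbr1 window held 1 run, of 3 G, and the listed Slc17a7 3′ UTR window of the methamphetamine list held none. GGGG matches are also GGG matches, and a match is a description of the letters, not a binding site.

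Because the members' RNA levels moved together, their promoters are shown for the genes nearest the common pattern, Slc17a7 and Cck, and for Neurod2, a factor of the class that binds E-boxes. They are the 250 bases before the transcription start in RefSeq (GRCm38), with the E-box CANNTG in capitals: chr7:45163671-45163920 on the plus strand for Slc17a7, chr9:121495695-121495944 on the minus strand for Cck, and chr11:98329646-98329895 on the minus strand for Neurod2.
Slc17a7 promoter: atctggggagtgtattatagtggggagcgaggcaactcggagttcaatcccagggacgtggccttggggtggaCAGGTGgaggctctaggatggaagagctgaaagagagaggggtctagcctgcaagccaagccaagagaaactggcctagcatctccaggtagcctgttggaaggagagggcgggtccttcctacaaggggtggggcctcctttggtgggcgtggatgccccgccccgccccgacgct
Cck promoter: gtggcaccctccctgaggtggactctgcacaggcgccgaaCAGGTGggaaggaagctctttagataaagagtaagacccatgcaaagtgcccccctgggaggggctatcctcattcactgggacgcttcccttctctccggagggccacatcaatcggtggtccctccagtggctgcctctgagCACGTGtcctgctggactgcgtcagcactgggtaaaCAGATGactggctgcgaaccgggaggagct
Neurod2 promoter: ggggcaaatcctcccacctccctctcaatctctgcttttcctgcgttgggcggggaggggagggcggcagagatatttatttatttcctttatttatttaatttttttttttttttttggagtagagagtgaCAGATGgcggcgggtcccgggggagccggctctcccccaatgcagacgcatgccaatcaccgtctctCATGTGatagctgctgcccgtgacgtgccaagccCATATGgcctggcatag

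The RefSeq table held 9 promoters of 8 members, 2 of them of Rorb. Searched on both strands, CANNTG was in 7 of the 9 and in 66.2% of all 32851 promoters. CAGATG, 1 form of CANNTG, was in 2 (Cck and Neurod2) and in 14.4% of all. CAGCTG, another form, was in none of the 9 and in 13% of all, the nuclear receptor motif AGGTCA in none and in 14.02%, and the T-box motif AGGTGT in 1 (Neurod6) and in 11.8%.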

How the data were processed

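RNA-seq and hnRNP H CLIP-seq libraries of 6 striatal pools, 3 per treatment, were used, grouped by their labels. Per the submitters' processing notes, Trimmomatic, UMI-tools, STAR, bedtools, Subread, featureCounts, limma and edgeR were used with mm10; their order, settings and strand counting are not given in the sources used here. The authors deposited RNA-seq levels as voom log2 CPM, with an offset of 0.5 reads that the values themselves show; whole reads were recovered within 0.02 reads for 100% of values. The deposited CLIP table gives raw counts per window, and of its 172271 lines the 147438 distinct positions were used once. The authors' deposited peak lists, 1 per treatment, give a signal value, treated as a score, and also a p-value and a q-value, from a test not given in the sources used here.

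RNA-seq was tested with limma 3.58.1 (trend, all 18208 genes) and CLIP counts, per window and summed per gene, with edgeR 4.0.16 (TMM, filterByExpr, quasi-likelihood), each with Benjamini-Hochberg adjustment at 0.05, in R 4.3.3; DESeq2 1.42.0 was an alternative. Scripts ran in Python 3.11.15, and the fits were tested on simulated data. SEs of edgeR differences were taken from the F statistic. Alternatives covered scaling, filters, the test, replicate numbers as a block, the library set and each replicate left out.

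The 9 genes and all lists were chosen with earlier results of these data known. Other genes were named by rule. These were the 5 nearest to the members' profile and the 5 nearest to its mirror image. Also named were the 4 most abundant of a cell type list, and cortical list genes with a mean of at least 4 log2 CPM. Cplx3, Neurod1, Slc30a3 and Scnn1a were named after their values were seen. Gene positions come from GENCODE M21, and windows are given 1-based, from the deposited start plus 1 to the deposited end. Intron sequence outside the tables was not used here. The own values of some list genes are not reported here.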

Additional observations from a re-analysis of the deposited data

How the results depend on the processing

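The counts of 0 called genes in RNA-seq (limma) and of 0 called genes and 0 called windows in CLIP-seq (edgeR) were 0 under each alternative run, with 1 exception: without a count filter, edgeR called 414 of 140449 windows, and the cause was not tested. Before adjustment, 109 genes (edgeR on recovered reads) to 958 genes (without methamphetamine replicate 2) were under 0.05 in RNA-seq. The difference of 3 members in RNA-seq turned with the library set as a covariate (Neurod6 -0.52, Rorb -0.034, Rasgrf2 -0.16). With each replicate left out in turn, Neurod6 ranged from -0.56 to 1.43, Rorb from -0.17 to 0.75 and Rasgrf2 from -0.17 to 0.76. The CLIP difference of Tbr1 ranged from -0.035 to 1.02, that of Neurod2 from -1.29 to 0.23 and that of Nrn1 from -0.35 to 0.13. The members' median ranged from 0.17 to 1.11. Without methamphetamine replicate 2, chosen after seeing the data, the medians of the choroid plexus list (-0.20) and the endothelial or mural list (0.26) turned. Where an arm has 2 samples its spread is pooled with the other. With the replicate number as a replicate block, 0 genes or windows were called in either assay (144, 183 and 127 under 0.05 before adjustment for RNA-seq genes, CLIP genes and CLIP windows), and the members' median was 0.81. Same-numbered pools did not deviate together (correlations of -0.35, -0.82 and -0.49 in RNA-seq). This cannot show whether the numbers pair pools, because the deviations also carry the difference between library sets. The labels do not say whether they do. Counting depth limits Neurod6 in RNA-seq and Cck, Rasgrf2, Rorb and Fezf2 in CLIP-seq. Read counts cover counting error only.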
